A study of Mus musculus with 36 samples.

Results

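5-hydroxymethylcytosine (5hmC) was measured by RRoxBS in articular cartilage of mice 4 weeks after destabilization of the medial meniscus (DMM), and the operated knees were compared with the contralateral ones. The level of 5hmC at a cytosine was the percentage of reads with C in the BS library minus that in the oxBS library of the same DNA sample, given in percentage points. Of all autosomal CpG cytosines, 1273505 had at least 10 reads in each of the 12 libraries and entered the comparison of 3 DMM pairs with 3 control pairs of libraries. These 12 libraries were taken from the 36 samples of the series, and the 12-week DNA libraries gave 1171395 cytosines by the same rule. The mice were C57BL/6J males operated on at 12 weeks of age on the right knee, and the unoperated left knees served as controls. An unoperated knee is not a sham-operated one, so the effects of surgery and of joint destabilization cannot be told apart. The cartilage was microdissected from tibial plateaus and femoral condyles, and each DNA sample pooled 3 knees, so that a pair describes a pool and not an animal. RNA was taken from other mice, and its values stand beside the 5hmC values as another set of samples from the same limbs and week.

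5hmC is made from 5-methylcytosine (5mC) by the TET dioxygenases, which use oxygen, iron and alpha-ketoglutarate, and it is the first intermediate on the way to an unmodified cytosine. Bisulfite alone (BS) reads 5mC and 5hmC both as C, whereas after oxidation (oxBS) only 5mC is read as C. The mark is known to lie mostly in the bodies of transcribed genes and at enhancers and to be scarce at CpG-dense promoters, and it has been linked to chondrocyte differentiation and osteoarthritis. The digestion with MspI, which cuts at CCGG, selects CpG-rich parts of the genome.

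The cytosines called between limbs by a test on pooled reads, described further on, included 8 inside protein-coding genes whose surroundings are printed because they had the largest differences among the called cytosines of such genes without overlap, other than one in Zfp516. Each line holds 30 bases on either side of the CpG in GRCm38 (mm10), read 5′ to 3′ on the strand of the measured cytosine, with the CpG in capitals. The first 4 had higher and the last 4 had lower 5hmC in the DMM pairs.
Fndc3b, chr3:27686381-27686442, plus strand: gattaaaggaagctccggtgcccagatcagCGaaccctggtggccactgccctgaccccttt
Fzd5, chr1:64735916-64735977, minus strand: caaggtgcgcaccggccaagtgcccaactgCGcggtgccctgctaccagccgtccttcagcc
Foxp4, chr17:47888174-47888235, minus strand: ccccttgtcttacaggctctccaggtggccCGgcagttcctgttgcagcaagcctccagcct
Stard13, chr5:151053362-151053423, minus strand: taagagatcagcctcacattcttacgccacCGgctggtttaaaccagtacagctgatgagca
Card10, chr15:78796559-78796620, plus strand: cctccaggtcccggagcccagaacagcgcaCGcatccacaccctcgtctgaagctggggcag
Baiap2l1, chr5:144290859-144290920, minus strand: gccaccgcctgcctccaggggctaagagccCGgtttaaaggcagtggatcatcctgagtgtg
Tacc2, chr7:130556306-130556367, minus strand: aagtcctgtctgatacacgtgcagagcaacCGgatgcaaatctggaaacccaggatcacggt
Ddx54, chr5:120618912-120618973, minus strand: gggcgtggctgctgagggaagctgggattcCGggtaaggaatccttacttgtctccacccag
The Fzd5 and Foxp4 cytosines lay in coding exons and the other 6 in introns. The CpG is part of a CCGG site at Foxp4, Stard13, Baiap2l1, Tacc2 and Ddx54.

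5hmC was low on average and uneven along the genome. Over all cytosines it was 1.64, 2.64 and 2.20 points in the 3 control pairs and 2.34, 2.87 and 2.56 points in the 3 DMM pairs, against 27.6% to 29.7% of 5mC in the same oxBS libraries. Promoters, defined as 1000 bases on either side of a gene start, held 41.9% of the cytosines and had 0.24 points on average over the 6 pairs. Exons had 3.01, introns 4.51 and the sequence outside genes 3.77 points. Only exons of curated RefSeq transcripts counted as exons. The rest of a gene span counted as intron, also where a predicted transcript has an exon. In each of the 6 pairs introns were highest and promoters lowest. The same order was not seen for 5mC, which was highest outside genes, at 57.7%, and 43.9% in introns.

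The level rose with the distance from gene starts. It was 0.107 points within 250 bases of a protein-coding start, 0.55 points between 500 and 1000 bases, 2.93 points between 2000 and 5000 bases and 4.63 points between 10000 and 50000 bases. Beyond 50000 bases it was 4.52 points although 5mC was still higher there, at 59.7% against 53.9%. CpG density gave the opposite order, with 6.31 points at cytosines that had fewer than 10 CpGs in the surrounding 500 bases and 0.0677 points where there were 40 or more.

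Cytosines of intermediate 5mC carried the most 5hmC. The mean was 0.0888 points where the oxBS level over all pairs was under 2%, 4.55 points between 10% and 30%, 9.27 points between 30% and 70%, 5.14 points between 70% and 90% and 1.15 points above 90%. Since the oxBS reads enter both measures, the cytosines were also sorted by the 5mC level of the 12-week libraries, which share no reads with these. The level was then 0.0157 points below 2%, 8.05 points between 30% and 70% and 2.06 points above 90%, so the peak at intermediate 5mC was present in both sortings. Since 5mC and 5hmC together cannot exceed 100%, room for 5hmC is small above 90%, and neither sorting removes this limit. At 30% to 70% the control pairs had 6.27, 10.2 and 8.49 points and the DMM pairs 8.96, 11.7 and 10.05 points. The pairs of both limbs were interleaved in this class.

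**Figure D1:**
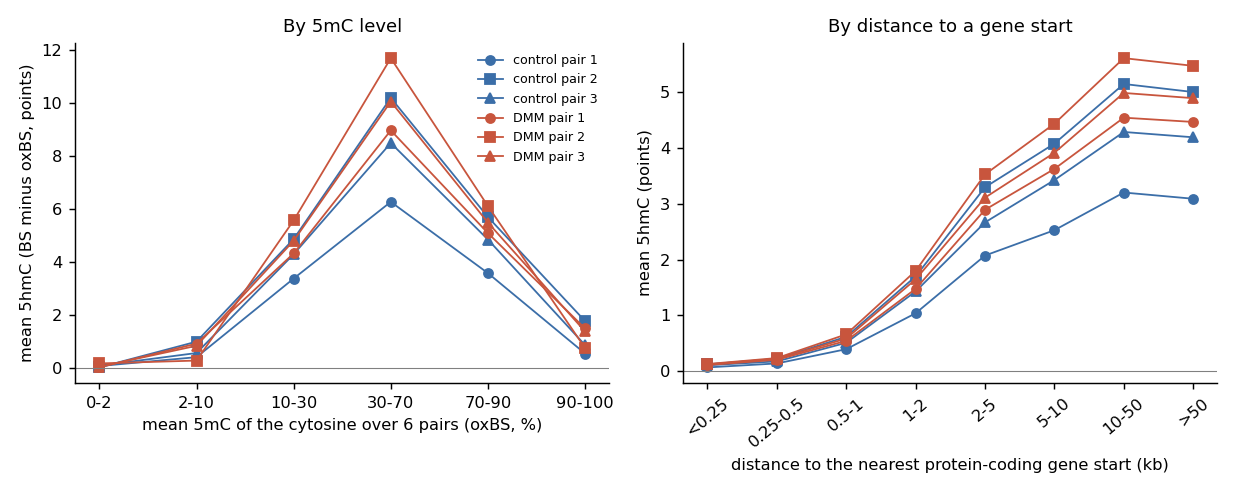
Mean 5hmC in points of each of the 6 pairs (blue, control; red, DMM; marker shape, replicate number) by the 5mC level of the cytosine in percent (left) and by the distance to the nearest protein-coding gene start in kilobases (right). All 6 pairs peak at 30% to 70% 5mC, between 6.27 and 11.7 points, and rise from gene starts up to the bin of 10 to 50 kilobases, and the curves of both limbs are interleaved.

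The background of the subtraction was small at cytosines almost free of 5mC. At the unmethylated cytosines sorted by the 12-week libraries the 6 pairs had 0.00772 to 0.0225 points, and BS minus oxBS at mitochondrial cytosines lay between -0.0330 and 0.123 points. BS and oxBS are both low at such sites, so they cannot show an error of oxidation at methylated cytosines, which was not measured. The precision at a single cytosine was limited by depth. The median coverage at the shared cytosines ran from 21 reads in BS and 24 in oxBS for DMM pair 2 to 127 and 149 for control pair 2, and at cytosines of at least 10% 5mC the counting error of BS minus oxBS was 4.71 to 11.1 points per pair. In that class 21.1% to 34.5% of the values were below 0, which no true level can be. Reads were not tagged by molecule, so such errors cover counting only.

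Levels were compared between strands and between limbs. Across 182400 CpGs read on both strands the mean 5hmC over 6 pairs had a correlation of 0.70 between strands, and across 9129 gene bodies the control mean and the DMM mean had a correlation of 0.90. The points of each correlation share libraries and depth, and neither genes nor cytosines are replicates. In gene bodies the correlation of single pairs was 0.63 to 0.86 within a limb and 0.63 to 0.89 between limbs. The range between limbs thus covered the range within them.

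Gene bodies of abundant RNAs carried more 5hmC. Genes were sorted by their mean CPM (counts scaled to the library total) in the 3 control RNA libraries of 4 weeks, and the gene body, the span from 1000 bases after the start to the end, needed at least 10 cytosines. Genes whose RNA was below the filter on low counts had 2.65 points over the 6 pairs, the lowest quartile had 3.89 points and the highest quartile 5.48 points. The step from the lowest to the highest quartile was seen in 6 of 6 pairs, from 2.72 to 3.72 points in control pair 1 and from 4.63 to 6.63 points in DMM pair 2. The 5mC of these bodies did not follow the same course, with 49.7% in the lowest and 48.2% in the highest quartile. Promoter 5hmC fell from 0.79 points where RNA was below the filter to 0.171 points in quartile 3. In the highest quartile it was 0.193 points. Promoter 5mC fell alongside from 11.7% to 1.68% in quartile 3 and was 1.72% in the highest quartile. Across 7450 gene bodies the control 5hmC and the log2 CPM had a correlation of only 0.17.

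**Figure D2:**
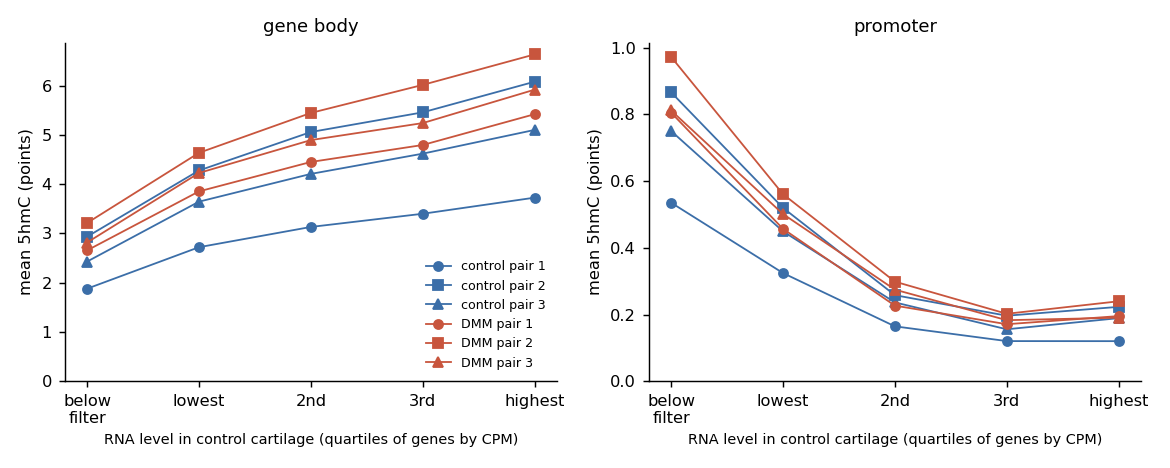
Mean 5hmC in points of each pair in gene bodies (left) and promoters (right) for genes grouped by RNA level in control cartilage, from genes below the count filter to the quartile with the highest CPM. In gene bodies the 6 pairs rise from between 1.88 and 3.21 points to between 3.72 and 6.63 points, and promoters are highest for genes below the filter.

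The 10 gene bodies with the highest 5hmC in control cartilage, among those with at least 20 cytosines, were those of Rhoq, Chst12, Cemip2, Jak1, Nr1d2, B3gnt2, Asph, Dusp10, Ank and Cnksr3, with control means of 14.0 to 18.3 points. The median gene body over the 6 pairs was at 3.77 points. Chst12, a sulfotransferase that modifies chondroitin, had 12.6, 23.0 and 16.4 points in the control pairs and 20.5, 22.5 and 23.4 points in the DMM pairs. Ank, a transporter linked to pyrophosphate export and to restraint of mineralization, had 10.8, 17.0 and 14.4 points against 15.3, 22.9 and 17.0 points. In both genes the limbs overlapped. Jak1, a kinase that acts behind cytokine receptors, had 15.3, 16.2 and 13.3 points against 14.3, 16.7 and 17.3 points. The DMM pairs, which took no part in the choice of these 10, had means of 14.6 to 22.1 points there, and at 12 weeks the control means of the same genes were 7.65 to 11.5 points.

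Genes of the cartilage program differed widely in level. Of 24 cartilage matrix genes, 13 had a measurable body, with a median of 6.93 points. Acan, the large proteoglycan of cartilage, was highest with 8.81, 14.2 and 10.4 points in control and 12.8, 13.8 and 15.2 points in DMM pairs. Col11a2, a fibrillar collagen chain, followed with 9.24, 10.8 and 10.1 points against 11.3, 15.1 and 12.7 points. Its limbs did not overlap, but the difference of 2.99 ± 1.11 points (SE) had a limma adjusted p of 0.859. Col2a1, the main collagen of cartilage, had 3.12 ± 0.553 points in control and 3.63 ± 1.24 points in DMM pairs (SD, n = 3), close to the median gene, and Chadl was lowest of the list with 2.05 points over all pairs.

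All 24 chondrocyte transcription factors were measured, with a median of 6.37 points. Dlx5, a homeobox factor of skeletal development, had 17.3 points over the 6 pairs and Gli3, a mediator of hedgehog signalling, had 12.3 points. Sox9, the factor that sets chondrocyte identity, had 0.634 points with a mean 5mC of 4.25%, and Foxc1 had -0.097 points with 1.16% 5mC. The genes at the bottom of this list were thus nearly free of the 5mC from which 5hmC is made. Among matrix proteases and inhibitors, 20 of 24 were measured with a median of 5.71 points, from Timp2, an inhibitor of metalloproteinases, at 14.2 points and Adamts10 at 11.7 points down to Adamts5, an aggrecanase, at 1.93 points and Mmp9, a gelatinase, at 0.955 points. For hypertrophy and ossification 11 of 20 genes were measured, with a median of 2.52 points. Ank had 16.2 points and Enpp1, which makes pyrophosphate, 12.5 points, while Sost, an inhibitor of bone formation, had 0.0585 points.

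Signalling genes showed the same spread. TGF-beta and BMP signalling had 26 of 30 genes measured and a median of 5.23 points, led by the co-receptor Tgfbr3 at 13.8 points and the SMAD co-repressor Ski at 12.6 points, with the BMP antagonist Chrd at 0.574 points and Inhbb at 0.467 points at the other end. WNT signalling had 33 of 35 and a median of 2.31 points, with the nuclear factor Tcf7 at 12.6 points and the co-receptor Lrp6 at 12.1 points against 0.518 points for the ligand Wnt6 and 0.164 points for Wnt1. The 30 measured Hox genes of 39 had a median of 1.33 points and a median 5mC of 9.04%, but Hoxa4 had 16.3 points and Hoxc5 13.7 points, whereas Hoxb8 and Hoxc13 were at -0.0659 and -0.206 points.

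Lists for other tissues bear on the makeup of the samples only through their RNA, since 5hmC marks no cell type by itself. The median 5hmC was 4.47 points for 16 measured skeletal muscle genes, 1.69 points for 13 blood and bone marrow genes, 2.95 points for 14 endothelial, 6.89 points for 15 synovial fibroblast and 1.67 points for 7 adipocyte genes. Among the highest members were Des at 7.55 points and Pygm at 7.19 points in muscle, Lyl1 at 12.98 points and Ebf1 at 6.95 points in blood, Erg at 9.07 points and Eng at 8.84 points in endothelium, Fap at 13.4 points and Col6a2 at 13.1 points in synovial fibroblasts, and Dgat2 at 5.30 points and Lipe at 5.21 points in adipocytes. The lowest were Acta1 at -0.338 points and Mybpc2 at 1.29 points in muscle, Klf1 at -0.234 points and Runx1t1 at -0.0744 points in blood, Sox18 at -0.258 points and Sox17 at -0.064 points in endothelium, Has1 at -0.0872 points and Has2 at 0.0477 points in synovial fibroblasts, and Adipoq at 1.39 points and Plin1 at 1.51 points in adipocytes. In RNA all 8 chondrocyte markers were present, with a summed level of 3675 to 8104 CPM in control and 3170 to 6893 CPM in DMM libraries. Of these, 2 had an unadjusted edgeR p under 0.05, Sox9 (197 against 96.1 CPM) and Matn3 (14.0 against 1.76 CPM). Their edgeR adjusted p were 0.346 and 0.340, and the Matn3 control mean rested on library 3, at 37.1 CPM. Acan (631 against 415 CPM), Comp (3430 against 2297 CPM) and Col9a1 were also lower in DMM libraries on average, with overlap. The edgeR adjusted p of Acan, Comp and Col9a1 were 0.479, 0.565 and 0.465. The other 3 markers, Col2a1, Col11a1 and Hapln1, were slightly higher in DMM libraries on average. The 8 skeletal muscle markers summed to 5567 to 19806 CPM in control and 481 to 3199 CPM in DMM libraries, without overlap. In edgeR 8 of 8 had an unadjusted p under 0.05, against 2032 of 15169 genes, and adjusted p of 0.109 to 0.323, and DESeq2 gave an adjusted p of 5.39e-15 for Myh1, a muscle myosin, and 0.0656 for Ckm, the muscle creatine kinase. Fewer cells of a type and less RNA per cell cannot be told apart in such samples. Blood and bone marrow markers summed to 2139 to 5521 CPM and 2627 to 3450 CPM, 5 endothelial markers to 145 to 201 CPM and 188 to 204 CPM, and 4 adipocyte markers to 201 to 223 CPM and 222 to 351 CPM. The part of such tissue in the 5hmC values was not tested, because the RNA came from other mice.

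**Figure D3:**
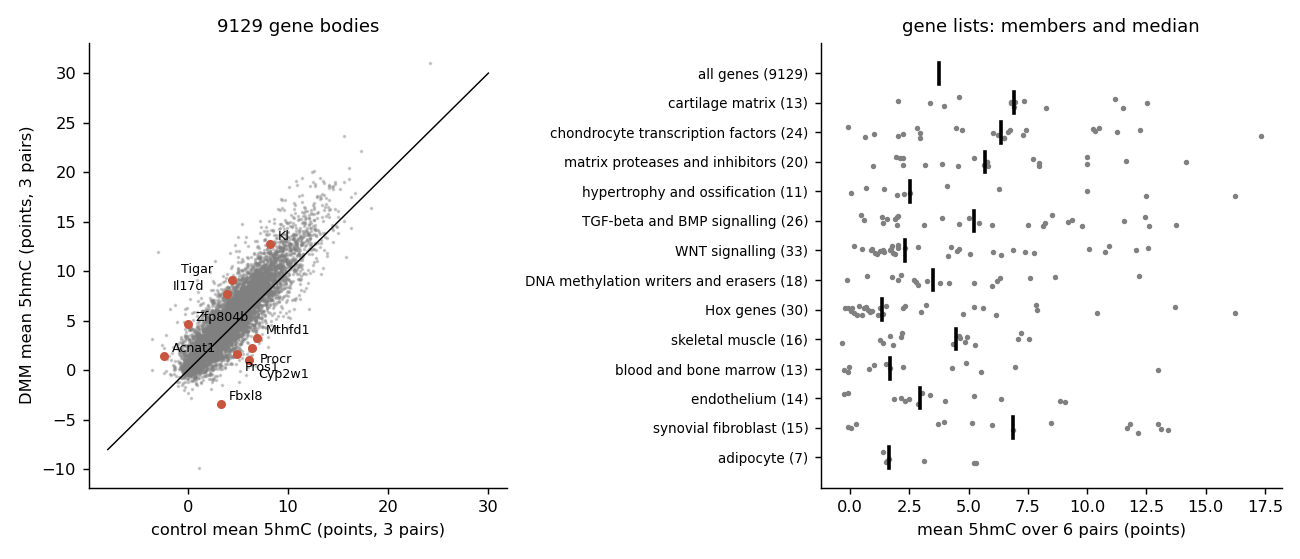
Left, mean 5hmC in points of 9129 gene bodies in control (x axis) and DMM pairs (y axis), with the line of equality and, in red, the 5 bodies with the smallest p in each direction. Right, members (points) and median (bars) of each gene list by mean 5hmC over 6 pairs; cartilage matrix and synovial fibroblast genes have medians of 6.93 and 6.89 points and Hox genes 1.33 points.

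Whether 5hmC differed between limbs was asked first for the whole set of cytosines. The mean was 2.16 ± 0.504 points in control and 2.59 ± 0.267 points in DMM pairs (SD, n = 3), a ratio of 1.20 and a difference of 0.43 points with a normal-theory 95% interval of -0.483 to 1.34 points. It was 0.169 points without control pair 1 and 0.671 points without control pair 2. The exact permutation test gave p = 0.3, two-sided, and with 3 pairs against 3 it cannot go below 0.1. The ranges overlapped, with control pair 2 above DMM pairs 1 and 3, while each DMM pair was above the control pair of its own number. BS was 30.9% in control and 30.6% in DMM pairs and oxBS was 28.7% and 28.0%, so both measures were lower in DMM pairs and oxBS by more, with overlap in each. With reads summed over all cytosines instead of averaged, 5hmC was 4.78 points in control and 5.18 points in DMM pairs, a ratio of 1.08.

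The ratio varied little between genomic classes. It was 1.20 in promoters, 1.19 in exons, 1.20 in introns and outside genes, 1.17 to 1.22 on the 19 autosomes and 1.23 at 30% to 70% 5mC, and control pair 1 was the lowest in each of the genomic classes and DMM pair 2, the shallowest, the highest. By 5mC level it ran from 1.03 at 2% to 10% to 1.25 below 2%, and where 40 or more CpGs lay in 500 bases it was 1.28. Sorted by the 5mC level of the 12-week libraries, the ratio was 1.19 at 2% to 10% and 1.02 below 2%. The order of the 6 pairs was the same in promoters, exons, introns and outside genes.

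At 12 weeks the control pairs had 1.55, 1.63 and 1.43 points and the DMM pairs 2.35, 1.78 and 2.02 points, which did not overlap and gave p = 0.1 in the exact permutation test, the smallest it allows. The 12-week difference was 0.513 points, close to the 0.43 points of 4 weeks. For 1 of the 12-week DMM libraries, the BS library labelled pair 1, the deposited name gives pair 2, and the label was followed. The BS means of DMM pairs 1 and 2 were 31.08% and 31.24%, and their oxBS means 28.73% and 29.47%. With these 2 BS libraries exchanged, DMM pair 2 would lie below control pair 2, so the separation of the limbs depends on the label. At the level of genes, the limma interaction of limb and week was past an adjusted p of 0.05 in 0 of 8556 bodies, a background of 0%, with 335 (3.92%) at an unadjusted p under 0.05.

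**Figure D4:**
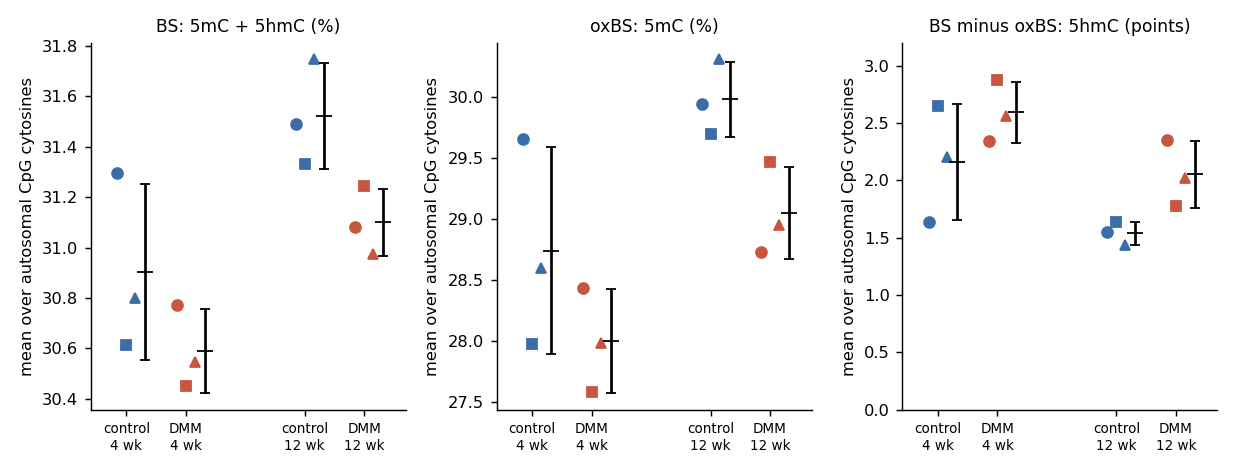
Mean over autosomal CpG cytosines of BS (5mC plus 5hmC, percent), oxBS (5mC, percent) and their difference (5hmC, points) for each pair at 4 and 12 weeks; bars are mean and SD of 3 pairs, and the BS and oxBS axes do not start at 0. At 4 weeks the limbs overlap in all 3 panels. At 12 weeks, with the libraries paired by label, 5hmC is higher in each DMM pair than in each control pair.

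No gene body was called between limbs. In limma, 0 of 9129 bodies (0%) had an adjusted p under 0.05, the smallest being 0.859, and 369 (4.04%) had an unadjusted p under 0.05. The median difference was 0.56 points with a median SE of 1.1 points, and 6531 bodies, 71.5%, were higher in DMM pairs. After each pair was scaled to the mean of all pairs, 50.03% were higher and the median difference was 0.000795 points. In 826 bodies (9.05%) the limbs did not overlap.

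The bodies with the smallest p in the upward direction were those of Zfp804b, Tigar, Kl, Il17d and Acnat1. Tigar, a phosphatase that lowers glycolysis, had 4.40, 5.004 and 3.72 points in control and 8.44, 8.48 and 10.3 points in DMM pairs, a difference of 4.71 ± 0.781 points (SE). Kl encodes klotho, a co-receptor for a fibroblast growth factor, and had 7.37, 9.75 and 7.62 points against 12.7, 12.1 and 13.6 points. Its 12-week difference was 2.996 points, whereas that of Tigar was -0.838 points. Those of Zfp804b, Il17d and Acnat1 were 2.55, 0.536 and 1.52 points. After scaling, the 4-week difference of Kl went from 4.54 to 2.60 points. Il17d, a cytokine gene, had 2.95, 4.61 and 4.02 points against 6.78, 7.63 and 8.70 points, and Zfp804b and Acnat1 had control values between -3.27 and 1.17 points. Each of these 5 had non-overlapping limbs and a limma adjusted p of 0.859.

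In the downward direction they were Fbxl8, Mthfd1, Procr, Cyp2w1 and Pros1. Mthfd1, an enzyme of one-carbon folate metabolism, had 5.79, 7.73 and 7.11 points in control and 3.63, 2.61 and 3.65 points in DMM pairs. Its difference of -3.58 points was -0.077 points with summed reads and -1.94 points at a coverage of at least 20. Procr and Pros1, of the protein C anticoagulant system, had 6.41 ± 0.958 and 4.90 ± 0.857 points in control and 2.21 ± 1.38 and 1.60 ± 1.08 points in DMM pairs (SD, n = 3). With summed reads the difference of Pros1 went from -3.30 to -5.78 points and that of Cyp2w1 from -5.04 to -8.73 points. Fbxl8, an F-box protein, had 4.40, 4.57 and 0.965 points against -3.63, -2.10 and -4.33 points, so its DMM values lie below what a true level can be. At 12 weeks the difference was 2.27 points for Mthfd1, 1.56 points for Procr and 2.45 points for Cyp2w1, opposite in sign to 4 weeks, and -3.48 and -0.305 points for Fbxl8 and Pros1.

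None of the lists passed the test in any member. Of the bodies of TGF-beta and BMP genes 22 of 26 were higher in DMM pairs, of chondrocyte transcription factors 21 of 24, of synovial fibroblast genes 12 of 15, of cartilage matrix genes 9 of 13 and of DNA methylation writers and erasers 10 of 18, against 71.5% of all bodies. After scaling the counts were 14, 10, 8, 6 and 6, against 50.03% of all bodies. The median differences were 0.837, 1.18, 1.73, 0.749 and 0.0979 points in that order, against 0.56 points for all bodies. After scaling these medians were 0.0999, -0.191, 0.00747, -0.192 and -0.5 points, against 0.000795 points for all bodies. Before scaling the remaining lists had 13 of 20 for proteases and inhibitors, 8 of 11 for hypertrophy and ossification, 25 of 33 for WNT signalling, 19 of 30 for Hox genes, 12 of 16 for muscle, 10 of 13 for blood, 9 of 14 for endothelium and 6 of 7 for adipocyte genes. After scaling these were 6, 6, 18, 18, 9, 7, 4 and 5, so that the majority turned for proteases and inhibitors and for endothelium.

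The genes that write and remove the marks were followed singly. Tet1, a dioxygenase that makes 5hmC, had 3.43, 2.48 and 2.19 points in its body in control and 1.93, 0.586 and 2.39 points in DMM pairs, and Tet2 and Tet3 had 8.85 against 8.45 points and 5.39 against 5.08 points. Idh1, which makes the TET cofactor alpha-ketoglutarate, had 0.399, 2.26 and 0.144 points against 2.97, 2.91 and 3.40 points, without overlap. Of the 18 measured bodies of this list 1 had the DMM pairs above and 2 had them below the control pairs without overlap. Over all bodies the limbs did not overlap in 9.05%. The maintenance methyltransferase Dnmt1 had 2.50 against 3.27 points and the de novo enzymes Dnmt3a and Dnmt3b had 1.67 against 1.83 and 7.09 against 4.91 points. Mbd2, a reader of 5mC, was the highest of the list at 12.2 points and the stress gene Gadd45g the lowest at -0.14 points, next to the DNA glycosylase Smug1 at 0.7 points. None of these differences had a limma adjusted p under 0.859.

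In RNA Tet1 had 5.83, 5.51 and 6.95 CPM in control and 11.5, 9.79 and 10.7 CPM in DMM libraries, without overlap. The adjusted p was 0.272 in edgeR and 0.0215 in DESeq2. Tet2 had 16.5 and 21.0 CPM, Tet3 25.9 and 17.7 CPM and Idh1 151 and 232 CPM on average, with edgeR adjusted p of 0.444, 0.348 and 0.364. Dnmt1 had 86.6 and 53.9 CPM and Dnmt3a 42.2 and 28.4 CPM, with edgeR adjusted p of 0.383 and 0.323. The 24 genes of this list summed to 901 to 1018 CPM in control and 839 to 871 CPM in DMM libraries. Of them, 6 had an unadjusted edgeR p under 0.05. Over all genes edgeR called 0 of 15169 (0%), with 2032 at an unadjusted p under 0.05, and DESeq2 called 505 of 15151 (3.33%). Without control library 3 edgeR called 46, and with the replicate number as a block it called 247 (21 higher, 226 lower). Across 7450 genes the limb difference of body 5hmC and the log2 fold change of RNA had a correlation of 0.03, in different mice.

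Promoters held little 5hmC to compare. In limma 0 of 11121 (0%) had an adjusted p under 0.05, with 426 (3.83%) at an unadjusted p under 0.05 and 1063 (9.56%) without overlap, and 51.8% were higher in DMM pairs. Those with the smallest p upward were Pdxp, Dmtn, Kat8, Fam234a and Slc38a3 and downward Chad, Adgrl3, Cela1, Mtpap and Cdkn3. The promoter of Chad, which encodes the cartilage matrix protein chondroadherin, had 2.87, 3.63 and 4.50 points in control and 0.52, 0.351 and 0.815 points in DMM pairs. Its RNA was at 20571 CPM on average in control libraries, and the limma adjusted p of the promoter was 0.964. Slc38a3, a glutamine transporter, had 9.22, 11.3 and 8.41 points against 18.6, 16.5 and 15.2 points, a difference of 7.09 points that was 4.64 points after scaling, and Dmtn, an actin-bundling protein of the red cell skeleton, had 4.68, 2.23 and 3.68 points against 10.1, 8.52 and 9.12 points.

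Lrrc15, the leucine-rich repeat gene on which the study centred, lies on the minus strand at chr16:30269302-30283254. Its RNA was 2.93, 2.47 and 1.35 CPM in control and 31.3, 18.1 and 25.6 CPM in DMM libraries, with an adjusted p of 0.0575 in edgeR and 1.31e-17 in DESeq2. Its promoter, with 31 cytosines, had 1.58, 2.49 and 0.796 points of 5hmC in control and 0.943, 1.21 and 2.37 points in DMM pairs. The promoter values overlapped, and the difference was -0.118 ± 0.558 points (SE). Of the 56 measured cytosines in the gene or within 10000 bases of it, 28 were inside the gene, and the read-level test called 0, against 0.00817% of all cytosines. In limma 4 of the 56 had an unadjusted p under 0.05, against 45565 of 1273505, and 6 did not overlap between limbs, against 6.61%.

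At single cytosines the test on pooled reads, with the study's thresholds of 25 points and q under 0.05, and with values below 0 set to 0 here, called 104 of 1273505 (0.00817%). Of these, 61 were higher (0.00479%) and 43 lower (0.00338%) in DMM pairs. The test takes reads as the units, and 229479 cytosines had an unadjusted p under 0.05. No cytosine was called by limma on the pairs, with 45565 at an unadjusted p under 0.05, or by a test that kept values below 0 and counted the error of all 4 percentages, with 52148. The smallest pooled difference called was 25.04 points and the largest not called at that q was 24.99 points. The count was 1085 without DMM pair 1, 822 without control pair 2, 290 without DMM pair 3, 194 without control pair 1, 172 without control pair 3 and 161 without DMM pair 2. The split by direction moved as well, to 991 higher and 94 lower without DMM pair 1, to 77 higher and 117 lower without control pair 1 and to 343 higher and 57 lower with unweighted means. Of the 104, 14 were called in each of the 6 fits that left out a pair.

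The called cytosines lay in introns in 60 cases (57.7%), outside genes in 28 (26.9%), in exons in 12 (11.5%) and in promoters in 4 (3.85%). Of all cytosines with at least 10% 5mC, 43.1% lay in introns, 33.1% outside genes, 20.02% in exons and 3.76% in promoters. In all, 71 genes held one or lay within 10000 bases of one. Their median 5mC was 48.2%, and 54.8% lay in CCGG, against 52.7% of all cytosines with at least 10% 5mC. The lowest coverage among the 12 libraries had a median of 11 reads at the called cytosines and 19 reads at all. In 78 of 104 the limbs did not overlap, a feature of 6.61% of all cytosines and of 9.66% of those with at least 10% 5mC, but the call rests on the same reads and nothing is read from this. At 72 of 104 (69.2%) the oxBS level moved further than the BS level, against 54.9% of cytosines with at least 10% 5mC, and this held for 50 of 61 higher and 22 of 43 lower calls. In addition, at 86 of 104 (82.7%) the changes of BS and oxBS had opposite signs, against 41.4% of cytosines with at least 10% 5mC. A call needs a large difference between BS and oxBS, which favours opposite signs, so nothing is read from these shares.

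The other strand and the other week give values the calls did not use. At 16 called cytosines the partner cytosine on the other strand was measured, and 12 of 16 had the same sign of difference, against 51.4% of cytosines with at least 10% 5mC. The split was 12 of 13 for those higher and 0 of 3 for those lower in DMM pairs. The partner's difference in the direction of the call had a median of 3.17 points against 29.1 points at the called cytosines, and 0 of 16 partners were called. At 12 weeks 45 were measured and 30 had the same sign, against 51.3% of the comparable cytosines, with a median of 5.06 points in the direction of the call. These were 23 of 32 (71.9%) of the higher calls with a median of 5.77 points and 7 of 13 (53.8%) of the lower calls with a median of 1.02 points. The background shares mix both directions, whereas most of these calls were upward, and no background by direction was computed. Over all cytosines with at least 10% 5mC the mean was 1.02 points higher in DMM pairs, so nothing is read from these shares.

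The spread of all differences was set beside the counting error. At the 523690 cytosines with at least 10% 5mC, DMM minus control had an SD of 7.21 points, and counting error alone gave 6.59 points. Across the 182400 CpGs read on both strands the difference had a correlation of 0.03 between strands, against 0.70 for the level.

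Of the 8 largest calls upward without overlap, that in an intron of Fndc3b, a fibronectin type III domain protein, was the largest in the set. It lies on the plus strand at position 27686411 of chromosome 3, 24896 bases from the gene start. 5hmC was -12.0, 21.1 and 21.0 points in control and 48.7, 72.8 and 61.7 points in DMM pairs. BS rose from 66.3% to 88.6% on average while oxBS fell from 56.2% to 27.5%, at 18 to 78 reads per library. The read-level q was 1.61e-09, and the test that kept values below 0 gave an adjusted p of 0.232. At 12 weeks the same cytosine had 26.2 points in control and 30.8 points in DMM pairs. The RNA of Fndc3b was at 95.4 and 117 CPM.

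Fzd5 encodes a WNT receptor, and the called cytosine at position 64735947 of chromosome 1 lies in its coding sequence. It had -2.49, 5.86 and -5.56 points in control and 25.1, 58.3 and 42.0 points in DMM pairs, with 12 to 104 reads. The 3 DMM values were far apart, and the 12-week means were -10.5 and 12.2 points. Foxp4, a forkhead transcription factor, had -9.61, 17.8 and -18.9 points against 37.9, 30 and 45.1 points at position 47888205 of chromosome 17. The partner on the other strand there had 12.0 and 17.3 points, a smaller difference in the same direction. Foxp4 held another called cytosine, at position 47870002, with the opposite direction, where the control pairs had 36.9, 27.6 and 28.2 points and the DMM pairs 1.76, 3.18 and -5.34 points. Stard13 had 0, 4.50 and -11.0 points against 20.2, 45.5 and 41.9 points at position 151053393 of chromosome 5.

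The other 4 upward calls were in Zfp516, a zinc finger factor on chromosome 18, in Gm30530 and Gm33332, non-coding genes on chromosomes 16 and 10, and at position 119074920 of chromosome 1 with no gene within 10000 bases. Their control means were -4.97 to 2.04 points and their DMM means 32.9 to 40.4 points. At Zfp516 BS was nearly equal, at 74.2% and 72.9%, and oxBS was 72.2% and 32.5%, so the difference lay in the oxBS libraries.

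Of the 8 largest downward calls without overlap, 4 lay between positions 70564939 and 70564969 of chromosome 18, on the same strand. They lay inside Gm31671, a non-coding gene, in sequence counted as intron. Lying so close, they can be read by the same reads and are no separate evidence. At position 70564969 5hmC was 31.9, 29.3 and 35.9 points in control and -18.1, -10.6 and -12.9 points in DMM pairs. Here BS carried the difference, with 77.8%, 47.5% and 72.7% in control and 18.6%, 16.7% and 9.09% in DMM libraries, while oxBS was 33.6% and 28.6% on average. The adjusted p of 0.0991 in the test that kept values below 0 was the smallest of all cytosines.

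Card10, a scaffold protein of NF-kappaB signalling, had 37.1, 18.1 and 37.1 points in control and -3.75, -30.6 and -3.80 points in DMM pairs at position 78796589 of chromosome 15. Ddx54, an RNA helicase, had 30.5, 24.5 and 54.5 points against 6.56, 5.36 and -8.75 points at position 120618943 of chromosome 5. At both the limbs were separate by the rule of choice, and at 12 weeks Ddx54 had 16.0 and 15.0 points. Tacc2, a centrosomal protein, had 80, 15.7 and 29.2 points against -9.19, 10 and 10.1 points at position 130556337 of chromosome 7. Its control value of 80 points rested on an oxBS level of 20% where the other control libraries had 71.1% and 63.6%, and BS was 93.2% and 91.8% in the limbs. Baiap2l1, a protein that bends membranes at actin structures, had 45.6, 28.8 and 39.4 points against 7.25, -28.3 and 19.05 points at position 144290890 of chromosome 5, and at 12 weeks -3.11 and 24.2 points, the opposite order. It was called in 2 of the 6 fits that left out a pair. None of the RNAs of these protein-coding genes had an edgeR adjusted p under 0.38.

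**Figure D5:**
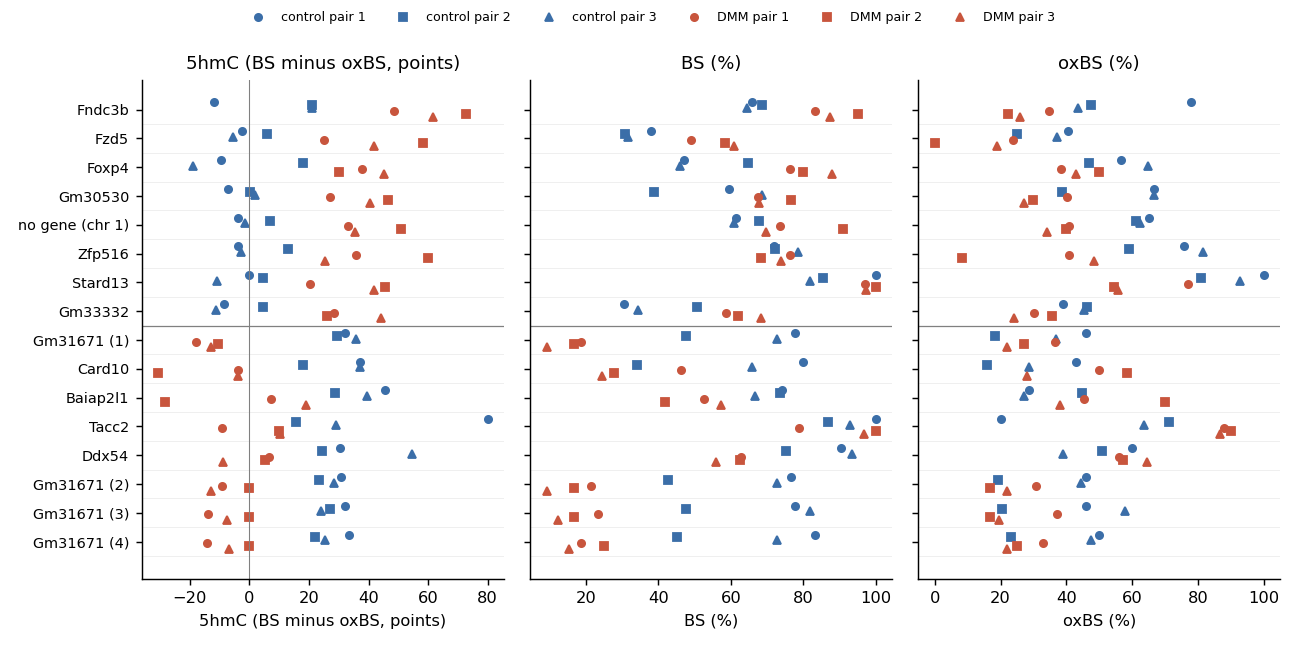
5hmC in points (left), BS in percent (middle) and oxBS in percent (right) of each pair at the 16 named cytosines, those higher in DMM pairs above the grey line and those lower below it (blue, control; red, DMM). The Fndc3b cytosine has 48.7 to 72.8 points in DMM and -12.0 to 21.1 points in control pairs, and at the 4 Gm31671 cytosines the limbs separate in BS but not in oxBS.

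Of the 71 genes, 3 belonged to the gene lists, a count from which nothing is read, and they are named after their values were seen. Idh1 had a called intronic cytosine with -9.81, 1.502 and -12.4 points in control and 26.0, 10 and 32.6 points in DMM pairs. Tet3 had one with 19.8, 40.8 and 28.3 points against 4.61, -0.905 and 8.04 points, and Cilp2, a cartilage intermediate layer protein gene, had 12.96, 44.8 and 31.6 points against -6.93, -11.7 and 9.62 points, both in exons outside coding sequence. The limbs were separate at all 3, as at 78 of all 104 called cytosines, and nothing is read from this. The Tet3 gene body as a whole, with 159 cytosines, differed by -0.316 ± 0.811 points (SE).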

How the data were processed

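Cartilage DNA of 3 control and 3 DMM pools was profiled by RRoxBS at 4 weeks. The authors digested DNA with MspI, pooled 6 indexed libraries, split the pool into an oxidised (oxBS, 9 PCR cycles) and a mock-oxidised part (BS, 7 cycles), sequenced single reads of 50 cycles and called methylation on mm10 after trimming with CUTADAPT. The submitters' processing notes name CASAVA 2.17, Bismark, STAR and featureCounts. The deposited values are, per CpG cytosine and strand, the coverage (read counts, at least 10) and the percent of reads with C and with T. The authors' spike-in duplexes were not analysed here, so oxidation efficiency was not checked. The deposited RNA values are counts per RefSeq transcript, of which 29476 of 30048 matched a symbol, and the transcript with the highest total stood for its gene. RNA totals were 33105311 to 50066012 counts.

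5hmC was BS minus oxBS percent within a pair of the same title number. Of 1273505 positions, 1273500 are CpGs in GRCm38. Single values were compared by exact permutation tests, without adjustment. Gene bodies and promoters (RefSeq of GRCm38, at least 10 cytosines) were compared by limma 3.58.1 with robust eBayes. Cytosines were compared by logistic likelihood ratios on reads pooled per limb. RNA was compared by edgeR 4.0.16 (quasi-likelihood, TMM) with DESeq2 1.42.0 as an alternative. R 4.3.3 and SciPy 1.17.1 were used. Benjamini-Hochberg adjustment was over all features tested, except that DESeq2 gave an adjusted p to 15151 of 15169 genes. The tests were also run on simulated data. For the pooled-read test these held no spread between pools, so they cannot show false calls that such spread would cause. For limma the simulated shifts were large against the spread. P-values of limma, edgeR, DESeq2 and the permutation tests measure the spread between pools or libraries, whereas those on pooled reads leave it out. The study compared limbs of the same mice, but the labels do not say whether same-numbered pools hold the same mice. The numbers were therefore not treated as pairing the limbs. Deviations of same-numbered pairs from their limb means correlated at 0.0207, 0.0166 and -0.00208 in 5hmC and at 0.391, -0.438 and 0.104 in RNA. At those cytosines counting error alone gave 6.59 of the 7.21 points of SD in the limb difference, so the 5hmC correlations cannot decide the question. Mean 5hmC was lowest in pair 1 and highest in pair 2 of both limbs.

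Named were the 8 called cytosines per direction with the largest mean difference among those without overlap, the 5 gene bodies and promoters per direction with the smallest p (none passed), the 10 highest control bodies, the 2 highest and lowest members of each of 13 lists, the DNA methylation enzymes and Lrrc15. One list member that this rule names is not reported here. The members, lists and rules were chosen with earlier results of these data known.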

Additional observations from a re-analysis of the deposited data

How the results depend on the processing

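The limb difference of the mean 5hmC kept its direction under each alternative. It was 0.399 points (summed reads, or coverage of at least 20) to 1.02 points (cytosines with at least 10% 5mC), with exact permutation p of 0.2 to 0.3. With a pair left out it was 0.169 points (without control pair 1) to 0.671 points (without control pair 2). The exact permutation p of these fits cannot go below 0.2, the value reached without control pair 2, where the limbs did not overlap. The exact sign-flip permutation test with the replicate number as a block gave 0.43 points with p = 0.25, the smallest it allows, the DMM pair being above the control pair of the same number in 3 of 3.

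The 104 called cytosines depended on the test. The count was 0 with an overdispersion correction, whose F test has 4 residual degrees of freedom, 0 with values below 0 kept, 0 by limma on pairs and 1 with a coverage of at least 20, which left 594845 cytosines. It was 400 with unweighted means and 731 at 20 points. With a pair left out it was 161 to 1085, and 1085 without DMM pair 1, 822 without control pair 2 and 161 without DMM pair 2, the shallowest. It was 104 without very high coverage, 88 with strands merged, 101 with a mean 5hmC of at least 5 points and 102 with the replicate block, which changed no other DNA call. With that block 888 gene bodies had an unadjusted limma p under 0.05, against 369 without it. The smallest limma adjusted p of a body was then 0.434, against 0.859.

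Gene bodies stayed at 0 called under each alternative and with a pair left out (0 to 0). The interaction with week stayed at 0 with at least 20 cytosines and after centring, and no other alternative was run for it. For promoters the count was 70 after centring on the pair's mean, which subtracts a mean set by methylated sequence from promoters near 0, 1 with 500 bases on either side, and 0 when each pair was scaled to the mean of all pairs (chosen after seeing the data) or left out. Of 207 recomputed differences of the 20 named bodies and promoters 1 changed sign, Fam234a with -0.0655 points at a coverage of at least 20. The 16 named cytosines passed under 0 of 48 recomputed tests. These were the overdispersion correction, the test with values below 0 kept and limma on pairs. In the 6 pooled-read fits that left out a pair, they were called from 2 times (Baiap2l1) to 6 times (Fndc3b among others). The list medians of bodies moved with scaling and centring. The 5mC sorting, the scaling and the centring of list medians were chosen after seeing the data.

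For RNA the count of 0 became 505 in DESeq2, 3 with DESeq2 size factors, 7 with no filter, 247 (21 higher, 226 lower) with the replicate block and 0 to 46 with a library left out (46 without control library 3, 7 without control library 1). The cause was not tested. Depth limits single cytosines, where the counting error of a pair was 4.71 to 11.1 points at 10% 5mC or more.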
